A study of Bos taurus with 27 samples.

Results

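The 3 genes described here were chosen by their normalised counts in these libraries: in a count table of 24616 genes, all 9 calves of one colostrum feeding group lay above or below all 9 calves of another. ENSBTAG00000001027 and ENSBTAG00000003566 were chosen for higher values in every calf fed at 12 h than in every calf fed at 0 h. ENSBTAG00000002907 was chosen for lower values in every calf fed at 12 h than in every calf fed at 6 h. The choice rested on these same 27 libraries, so the separations are given as descriptions and no test of them is reported. The deposited table lists genes by Ensembl cattle identifier and does not pair the identifiers with names. None of the 3 genes is given a function, position or sequence below, and the labelled tissue was not checked against marker genes.

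The libraries came from the ileum of male Holstein calves at 51 h of age. Calves were assigned at random to a first colostrum feeding immediately after birth (0 h), at 6 h or at 12 h, with 9 calves and 9 libraries in each group. All 3 groups were fed colostrum, so the 0 h group is the earliest feeding and not an unfed control. Each library is a separate calf, so replicate error here is variation between animals. The study asked whether a delay of the first colostrum changes the transcripts of the ileum.

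Colostrum is the first milk and carries the maternal antibodies, growth factors and nutrients on which a newborn calf depends, since antibodies do not cross the bovine placenta. The small intestine takes up whole antibodies for a limited time after birth, and this uptake ends as the epithelium matures. The ileum is the last segment of the small intestine. It absorbs bile acids and, in young calves, holds a large Peyer's patch in which B cells multiply. A library of whole ileum mixes epithelial, muscle and immune cells, and fewer cells of a type cannot be told apart from less RNA per cell.

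Libraries held from 972578 to 7125552 counts. Feeding at 0 h came with totals of 1925904 ± 749317 (SD, n = 9), feeding at 6 h with 1400239 ± 401816 and feeding at 12 h with 3116295 ± 1984289, so the calves fed at 12 h were on the whole the more deeply sequenced. Replicate 7 at 12 h stood apart: it was the deepest library, gave 42.7% of its counts to its 10 most abundant genes and had the lowest scaling factor (0.867). Normalised CPM below are counts as a share of the library, adjusted between libraries by the trimmed mean of M values (TMM). Of the 24616 genes, 11429 passed a filter on low counts, and all 3 chosen genes were among them with a count in 27 of 27 libraries.

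Across the 11429 genes, 2 separated 12 h from 0 h without overlap (0.0175%), both with the calves fed at 12 h higher. One gene separated 12 h from 6 h (0.00875%), with the calves fed at 12 h lower, and 0 genes separated 6 h from 0 h. These are the 3 genes themselves, so nothing is read from the counts. Each pair of groups gives 81 pairs of calves, and a gene without overlap has 0 pairs out of order. Just outside the rule in 12 h against 0 h lay a gene with 1 pair out of order, at 54.1 to 76.5 normalised CPM at 12 h and 76.3 to 90 at 0 h. Next came 2 genes with 3, of which the one with the larger fold change stood at 65.4 to 88.7 at 12 h and 49.7 to 68.4 at 0 h. Between 12 h and 6 h the nearest outside were 5 genes with 3 pairs out of order. The one of these with the largest fold change stood at 2.61 to 6.32 normalised CPM at 12 h and 5.57 to 10.9 at 6 h. Between 6 h and 0 h the nearest had 1 (15.4 to 24.1 at 6 h and 9.09 to 15.5 at 0 h). In 12 h against 0 h, the border of the rule thus ran between genes that differed by 1 pair of calves.

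ENSBTAG00000001027 had a higher mean the later the calves had been fed. At 0 h its lowest, median and highest calves stood at 87.7, 114 and 144 normalised CPM. At 6 h they stood at 109, 152 and 206, and at 12 h at 145, 162 and 222. The ranges at 0 h and 12 h touched without overlapping, while the 6 h range covered most of both. The mean of 9 calves went from 117 ± 17.9 (SD) at 0 h through 150 ± 31.3 at 6 h to 174 ± 28.8 at 12 h. The log2 fold change of 12 h over 0 h, the contrast that chose the gene, was 0.56 (SE 0.109), a fold of 1.48.

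The calves nearest to the border between 0 h and 12 h differed little in ENSBTAG00000001027. The lowest calf fed at 12 h, replicate 1, stood at 145.1 normalised CPM from 235 counts. The highest fed at 0 h, replicate 9, stood at 143.6 from 458 counts. The gap was 1.04% of the lower value. The exact 95% Poisson intervals of these calves, which cover counting error only, ran from 127 to 165 and from 131 to 157. Such intervals overlapped in 23 of the 81 pairs of calves from both groups (28.4%). In the 6 h group, 5 calves lay above the gap and 4 below it.

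ENSBTAG00000003566 was measured from far fewer reads, 13 to 168 counts per library. Its lowest, median and highest calves stood at 15.1, 17.3 and 18.6 normalised CPM at 0 h, at 13.6, 20.7 and 33.0 at 6 h and at 19.7, 22.2 and 28.0 at 12 h. The 6 h group held both the lowest and the highest of all 27 calves, and the 0 h group was the narrowest. The mean of 9 calves went from 17.0 ± 1.37 (SD) at 0 h through 21.7 ± 5.55 at 6 h to 23.8 ± 3.36 at 12 h. The log2 fold change of 12 h over 0 h, which chose the gene, was 0.47 (SE 0.123), a fold of 1.39.

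At 0 h the coefficient of variation of ENSBTAG00000003566 was 8.03%, where counts of this size carry a counting error of 19.0%. A rule of no overlap favours groups that happen to be narrow, and these 9 values are among those it used, so nothing is read from the small spread. At 6 h the corresponding values were 25.6% and 19.5%, and at 12 h 14.2% and 14.2%. The gap between the groups was 5.99% of the lower value. The calf fed at 12 h nearest to it, replicate 8, stood at 19.75 (99 counts, 95% Poisson interval 16.0 to 24.0). The calf fed at 0 h nearest to it, replicate 7, stood at 18.63 (53 counts, interval 14.0 to 24.4). The intervals overlapped in 79 of 81 pairs of calves (97.5%) and stood apart in 2. Overlap of intervals is not a test of a difference, and the order within the overlapping pairs is not settled by these intervals. In the 6 h group, 6 calves lay above the gap and 3 below it.

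ENSBTAG00000002907 had its lowest mean in the calves fed at 12 h and like means in the other groups. Its lowest, median and highest calves stood at 67.7, 80.3 and 106 normalised CPM at 0 h, at 74.4, 80.8 and 91.3 at 6 h and at 46.9, 66.2 and 72.9 at 12 h. The 0 h calves spread more widely than the 6 h calves around a like mean, and the lowest calf of all was replicate 3 at 12 h. The mean of 9 calves was 64.3 ± 8.24 (SD) at 12 h, against 79.9 ± 11.6 at 0 h and 82.0 ± 5.65 at 6 h. The log2 fold change of 12 h over 6 h, which chose the gene, was -0.35 (SE 0.0874), a fold of 0.785.

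The gap of ENSBTAG00000002907 between 12 h and 6 h was 2.11% of the lower value. It lay between replicate 2 at 12 h (72.9 normalised CPM, 83 counts, 95% Poisson interval 58.1 to 90.4) and replicate 1 at 6 h (74.43, 169 counts, interval 63.6 to 86.5). Intervals overlapped in 64 of 81 pairs of calves (79.0%). At 6 h the coefficient of variation, 6.89%, was below the counting error of 9.65%. These 9 values too are among those the rule used, so nothing is read from their small spread. At 0 h the coefficient of variation was 14.5% against a counting error of 8.82%, and at 12 h 12.8% against 8.56%. In the 0 h group, 6 calves lay above the gap and 3 below it.

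**Figure D1:**
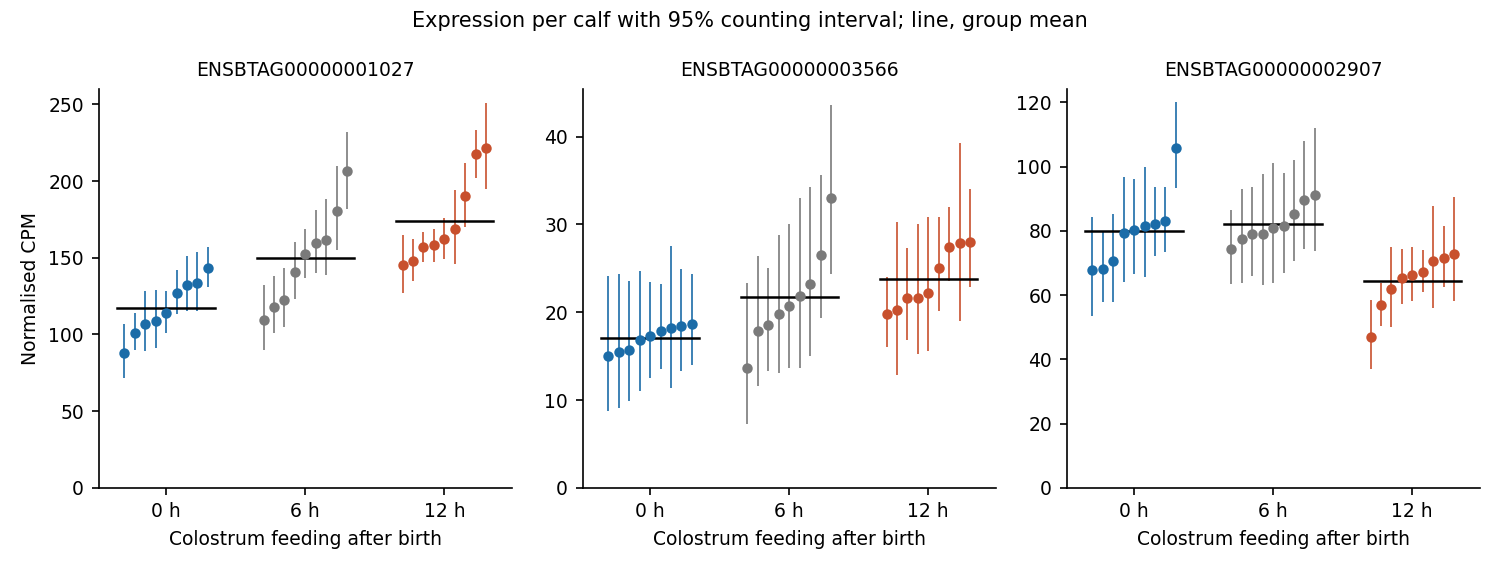
Normalised CPM of the 3 genes (vertical axes, from 0) by colostrum feeding time (horizontal axes); each point is a calf, ordered by value within its group, bars are exact 95% Poisson intervals and black lines are means of 9 calves. The points of ENSBTAG00000001027 and ENSBTAG00000003566 do not overlap between 0 h and 12 h, nor those of ENSBTAG00000002907 between 6 h and 12 h, while the intervals overlap in 23, 79 and 64 of 81 pairs of calves.

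The contrasts that did not choose a gene were tested with edgeR's quasi-likelihood model over all 11429 genes. None of these 6 tests passed after Benjamini-Hochberg adjustment, with adjusted p from 0.926 to 1. DESeq2 and limma voom also called 0 of the 6, with adjusted p from 0.53 to 1 and from 0.837 to 0.999. At an unadjusted p under 0.05 edgeR listed 3 of the 6, namely ENSBTAG00000001027 and ENSBTAG00000003566 between 6 h and 0 h and ENSBTAG00000002907 between 12 h and 0 h. In all genes edgeR called 0 (0%) in each contrast after adjustment. At an unadjusted p under 0.05 it listed 381 genes (3.33%) between 6 h and 0 h, 400 (3.5%) between 12 h and 0 h, and 585 (5.12%) between 12 h and 6 h. Each tested contrast shares 9 calves with the contrast that chose the gene, so the 3 at an unadjusted p under 0.05 are not independent of the choice.

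For 6 h over 0 h, ENSBTAG00000001027 had a log2 difference of 0.35 (SE 0.111, edgeR adjusted p = 1), with 14 of 81 pairs of calves out of order. ENSBTAG00000003566 had 0.34 (SE 0.132, edgeR adjusted p = 1), with 13 of 81 out of order. The 95% confidence intervals of these folds, not adjusted for the number of genes, ran from 1.09 to 1.49 and from 1.05 to 1.53. ENSBTAG00000002907 had 0.03 (SE 0.0876, edgeR adjusted p = 1), with a 95% confidence interval of the fold from 0.902 to 1.15. On the log2 scale the first pair of genes had a 6 h mean nearer to that at 12 h than to that at 0 h. These distances were not compared by a test, and the values at 0 h and 12 h had chosen both genes. Without replicate 5 at 6 h, ENSBTAG00000001027 had 0.29 for 6 h over 0 h and 0.28 for 12 h over 6 h. Without replicate 3 at 6 h, ENSBTAG00000003566 had 0.24 and 0.23 in that order. ENSBTAG00000002907 had its 6 h values at the level of 0 h.

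Between the delayed groups, the log2 fold change of 12 h over 6 h was 0.21 for ENSBTAG00000001027 (SE 0.109, edgeR adjusted p = 0.926) and 0.13 for ENSBTAG00000003566 (SE 0.124, edgeR adjusted p = 0.945). The 95% confidence intervals of these folds ran from 0.993 to 1.35 and from 0.918 to 1.30. Pairs of calves out of order numbered 23 and 27 of 81. For 12 h over 0 h, ENSBTAG00000002907 had a log2 difference of -0.32 (SE 0.086, edgeR adjusted p = 1), with 8 of 81 pairs out of order. The unadjusted 95% confidence interval of this fold ran from 0.71 to 0.905. The order of the group means was thus 0 h, 6 h, 12 h for the 2 genes that were highest at 12 h, and 12 h, 0 h, 6 h for ENSBTAG00000002907. No neighbours in these orders passed edgeR's test after adjustment over 11429 genes. Before adjustment 3 of the 6 tests had p under 0.05, and these are not independent of the choice.

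**Figure D2:**
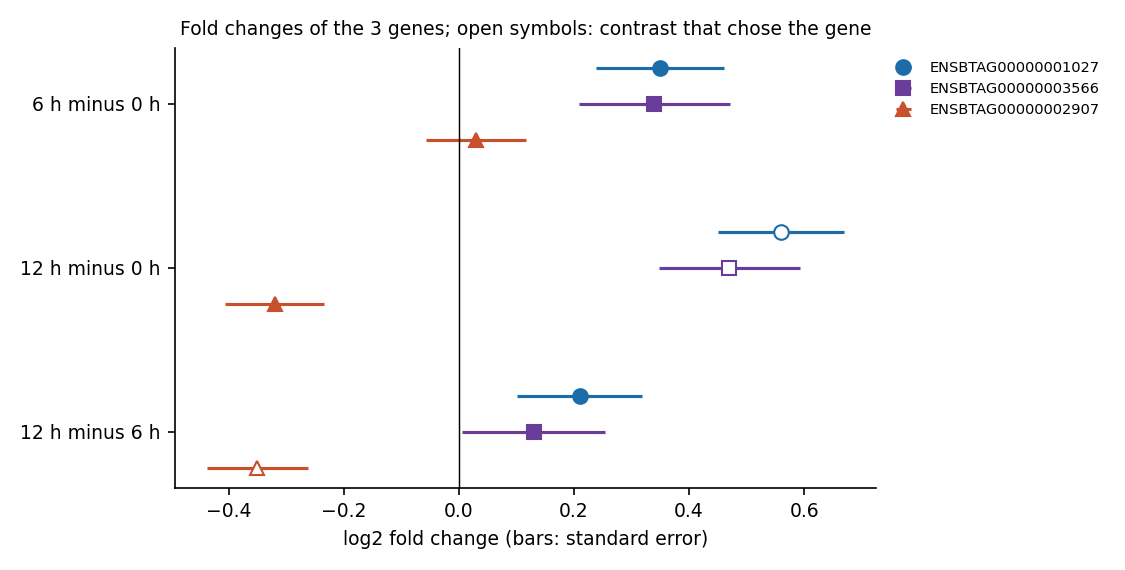
Log2 fold changes (horizontal axis) of the 3 genes in the 3 contrasts of feeding times (vertical axis), first group over second, from the edgeR model of 27 libraries; bars are standard errors and open symbols mark the contrast that chose the gene. The filled symbols run from -0.32 to 0.35, and none of them passed the test after adjustment.

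With RLE and with upper quartile factors in place of TMM, each of the 3 genes had 0 pairs of calves out of order in the contrast that chose it. On library totals alone, with no scaling factor, 2 of the genes overlapped. ENSBTAG00000001027 had 1 pair of calves out of order in 12 h against 0 h. Replicate 7 at 12 h then stood at 136.1 CPM, below replicate 9 at 0 h at 143.1. With TMM that library stood at 157. It is the library with the lowest scaling factor and the largest share of counts in its 10 most abundant genes.

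ENSBTAG00000003566 had 2 pairs out of order on library totals. Replicate 7 at 0 h stood at 20.59 CPM, above replicates 8 and 2 at 12 h at 20.33 and 20.47. That 0 h library had the highest scaling factor of all (1.105) and gave the smallest share of its counts to its 10 most abundant genes (30.1%). ENSBTAG00000002907 kept 0 pairs out of order in 12 h against 6 h on library totals. Its count in 12 h against 0 h went from 8 to 15 pairs. The fold changes in the contrasts that chose the genes hardly moved over the 10 alternative fits. In 12 h over 0 h they lay between 0.55 and 0.57 (log2) for ENSBTAG00000001027 and between 0.42 and 0.49 for ENSBTAG00000003566. For ENSBTAG00000002907 in 12 h over 6 h they lay between -0.36 and -0.33. These fits share the libraries and contrasts that chose the genes, and the rule favours large differences. Nothing is therefore read from how little the fold changes moved.

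**Figure D3:**
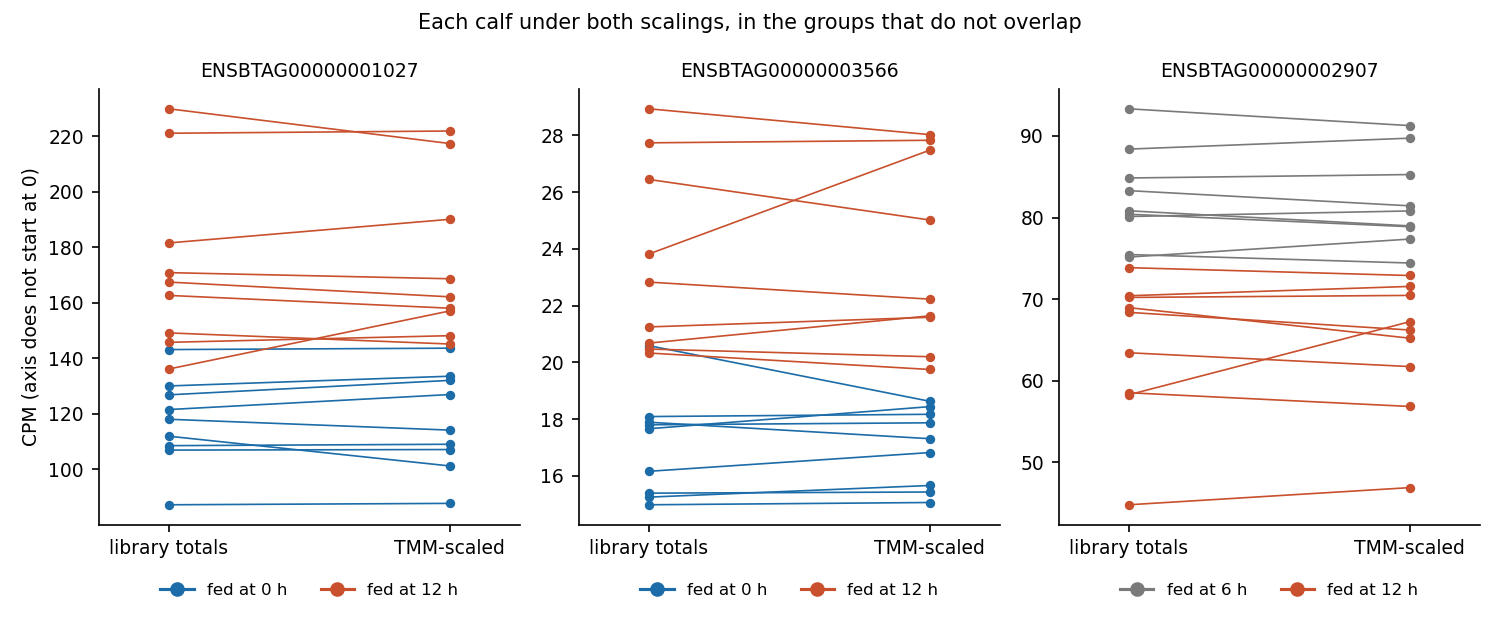
CPM of each calf (vertical axes, not from 0) on library totals alone and after TMM scaling (horizontal axes), in the groups that do not overlap; lines join the values of a calf. On library totals a 12 h calf lies among the 0 h calves for ENSBTAG00000001027 (136.1 against 143.1) and a 0 h calf among the 12 h calves for ENSBTAG00000003566 (20.59), while ENSBTAG00000002907 stays apart.

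Correlations between calves were taken within feeding groups, after removing each group's mean of log2 CPM, so the differences between groups that chose the genes were taken out. Between calves of one group, no relation among the 3 genes passed a permutation test. Over 27 calves, ENSBTAG00000001027 and ENSBTAG00000003566 had Pearson r = 0.093 (permutation p = 0.701) and Spearman rho = 0.19 (permutation p = 0.379). Without the 2 calves farthest from the median of ENSBTAG00000001027, r was -0.013. The other pairs had r = -0.11 and rho = -0.122 (ENSBTAG00000001027 and ENSBTAG00000002907, permutation p = 0.577 and 0.546) and r = 0.0752 and rho = 0.0684 (ENSBTAG00000003566 and ENSBTAG00000002907, permutation p = 0.656 and 0.732). Without 2 calves these r were -0.161 and 0.173. In the calves fed at 6 h, 3 lay above the gap of both ENSBTAG00000001027 and ENSBTAG00000003566, 1 lay below both, and 5 lay above one and below the other.

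Depth differed between the groups, so each gene was also set against the log2 library total within groups. For ENSBTAG00000001027 r was -0.0143 (rho = -0.00305, permutation p = 0.943 and 0.989). For ENSBTAG00000003566 it was 0.242 (rho = 0.233, permutation p = 0.17 and 0.25), and for ENSBTAG00000002907 0.0206 (rho = 0.0116, permutation p = 0.934 and 0.958). Without the 2 calves farthest from the median total, r was 0.0821, 0.273 and 0.049 in that order. Within single groups of 9 calves r was uneven: for ENSBTAG00000003566 it was 0.695 at 0 h, 0.261 at 6 h and 0.203 at 12 h. For ENSBTAG00000001027 it was 0.497, 0.0209 and -0.339, and for ENSBTAG00000002907 0.333, -0.567 and -0.0426. With the log2 total in the edgeR model, the log2 fold change of ENSBTAG00000003566 in 12 h over 0 h was 0.42 in place of 0.47, and in 12 h over 6 h 0.04 in place of 0.13.

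Against the share of counts in the 10 most abundant genes, r was 0.053 for ENSBTAG00000001027 (rho = 0.17, permutation p = 0.794 and 0.389). It was 0.00963 for ENSBTAG00000003566 (rho = -0.134, permutation p = 0.96 and 0.502) and -0.172 for ENSBTAG00000002907 (rho = -0.278, permutation p = 0.463 and 0.184). Without 2 calves these r were 0.113, -0.135 and -0.359. Within groups the first was uneven, at 0.315 at 0 h, 0.807 at 6 h and -0.319 at 12 h. The second was -0.448, -0.0397 and 0.197, and the third -0.399, -0.0436 and -0.0601. Over these 9 relations no adjusted p was below 0.819, for either coefficient.

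The genes differed in how much they varied between calves of a group. The biological coefficient of variation, the spread beyond counting error as estimated by edgeR, was 16.2% for ENSBTAG00000001027, 11.7% for ENSBTAG00000003566 and 11.4% for ENSBTAG00000002907. Among genes within 0.5 log2 CPM of each, the medians were 13.2% (921 genes), 15.1% (3013 genes) and 12.9% (1824 genes). ENSBTAG00000001027 was more variable than 75.0% of its neighbours in abundance, ENSBTAG00000003566 than 17.7% and ENSBTAG00000002907 than 27.6%. The rule favours genes of small spread, so the low values of ENSBTAG00000003566 and ENSBTAG00000002907 are a description. ENSBTAG00000001027 met the rule with a spread above the median of its neighbours. That estimate pools the 3 groups, while the rule used only 0 h and 12 h for this gene. Its coefficient of variation, counting error included, was 15.3% at 0 h, 20.9% at 6 h and 16.5% at 12 h.

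ENSBTAG00000001027 also varied together with many other genes between calves of a group. At r over 0.6, 449 genes went with it over 27 calves, more than for 94.3% of all genes, and 86 genes went against it at r under -0.6. For ENSBTAG00000003566 these numbers were 19 and 10, and for ENSBTAG00000002907 61 and 73, where the median gene had 37 and 25. All genes were the comparison here, and not genes of like abundance. ENSBTAG00000001027 ranked 827 of 11429 by abundance, ENSBTAG00000002907 ranked 2080 and ENSBTAG00000003566 ranked 6894. Whether counting error accounts for the different numbers was not tested. The 3 lists at r over 0.6 shared 0 genes with one another. Both values of each correlation come from the same libraries, whose depth differed, and the correlations are given as descriptions.

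The genes that went with ENSBTAG00000001027 within groups were then described between feeding times, with no test of the list. Over 6 h against 0 h their median log2 fold change was -0.088, with a median SE of 0.18, and 30.3% of the 449 lay above 0, against a median of 0 and 49.8% for all genes. Over 12 h against 0 h it was 0.09, with 80.6% of the 449 above 0, against 50.3% of all genes. Over 12 h against 6 h it was 0.174, with 89.1% above 0, against 50.1% of all genes. edgeR called 0 of the 449 in each contrast after adjustment. At an unadjusted p under 0.05 it listed 3 higher (0.668%, all genes 1.79%) and 4 lower (0.891%, all genes 1.54%) between 6 h and 0 h. Between 12 h and 0 h it listed 13 higher (2.9%, all genes 1.9%) and 0 lower (0%, all genes 1.6%). Between 12 h and 6 h it listed 39 higher (8.69%, all genes 2.61%) and 2 lower (0.445%, all genes 2.51%). Genes of such a list vary together, so its counts do not stand for as many separate observations.

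The lists of the other members were smaller. The 19 genes that went with ENSBTAG00000003566 had median log2 fold changes of 0.03 (6 h over 0 h), 0.099 (12 h over 0 h) and 0.028 (12 h over 6 h). By edgeR, 0 of them had an unadjusted p under 0.05, where all genes had 3.33%, 3.5% and 5.12%. Of these 19, 52.6%, 68.4% and 63.2% lay above 0 in that order. The 61 genes that went with ENSBTAG00000002907 had medians of 0.005, -0.028 and -0.044, and 52.5%, 39.3% and 31.1% of them lay above 0. At an unadjusted p under 0.05, edgeR listed 0, 1 and 2 of these 61, all lower (0%, 1.64% and 3.28%). Among all genes 1.54%, 1.6% and 2.51% were listed as lower. After adjustment it called 0 of either list.

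The gene most like ENSBTAG00000001027 within groups was ENSBTAG00000010497, with r = 0.869 and rho = 0.88 over 27 calves. Its r was 0.944 at 0 h, 0.868 at 6 h and 0.794 at 12 h. It ranged from 6.2 to 31.9 normalised CPM and had a mean of 17.3 ± 7.25 (SD, n = 9) at 0 h, of 15.5 ± 8.38 at 6 h and of 22.7 ± 7.12 at 12 h. The groups overlapped widely, with 22 of 81 pairs of calves out of order in 12 h against 0 h (log2 fold change 0.35, SE 0.245, edgeR adjusted p = 1). The gene most opposed to it was ENSBTAG00000005309, with r = -0.754 and rho = -0.702.

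ENSBTAG00000032548 was most like ENSBTAG00000003566 (r = 0.756, rho = 0.694) and ENSBTAG00000019646 most opposed (r = -0.66, rho = -0.507). Within groups the first of these had r = 0.65 at 0 h, 0.852 at 6 h and 0.582 at 12 h, and the other -0.0191, -0.8 and -0.547, so its opposition was not seen at 0 h. ENSBTAG00000032548 stood at 5.54 ± 1.34, 5.75 ± 2.83 and 5.78 ± 1.65 normalised CPM in the 3 groups, from the earliest to the latest feeding, with means that differed by less than the SD. ENSBTAG00000014023 was most like ENSBTAG00000002907 (r = 0.733, rho = 0.658) and ENSBTAG00000012121 most opposed (r = -0.76, rho = -0.781). By group, r with ENSBTAG00000014023 was 0.77, 0.403 and 0.889, and r with ENSBTAG00000012121 -0.567, -0.839 and -0.898. ENSBTAG00000014023 stood at 45.3 ± 5.31, 44.4 ± 4.99 and 41.3 ± 5.28, with a log2 difference of -0.09 for 12 h over 6 h (SE 0.0938, edgeR adjusted p = 0.945). The groups overlapped for each gene most like a member, as they did for all genes kept other than the 3 members. These are the extremes among all genes kept and carry no test.

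**Figure D4:**
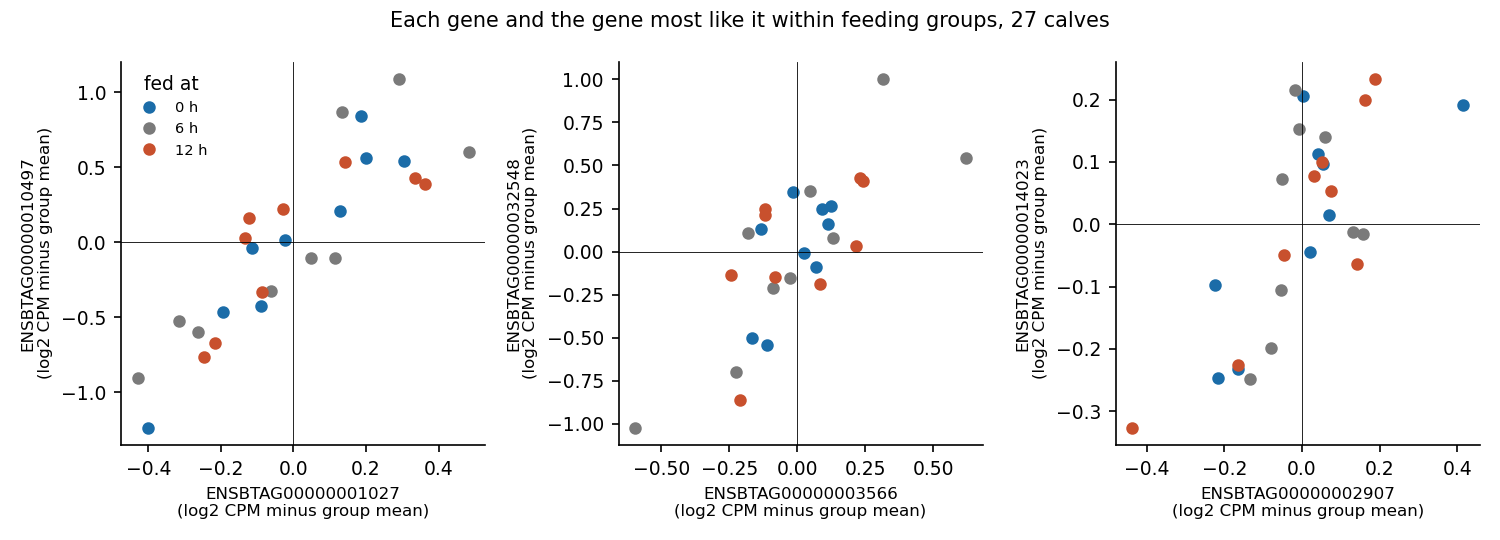
Log2 CPM minus the mean of the feeding group for each of the 3 genes (horizontal axes) and the gene most like it (vertical axes); points are 27 calves, coloured by feeding time. Over all 27 calves r is 0.869, 0.756 and 0.733; within groups it is lowest for ENSBTAG00000002907 at 6 h, at 0.403.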

How the data were processed

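RNA of 27 ilea was sequenced. Per the labels' protocols, the libraries came from a TruSeq kit without strand information, so a gene and an antisense partner cannot be told apart. The authors deposited raw counts per gene in 1 table. Per the submitters' processing notes, TopHat2 2.1.1, TopHat, SAMtools 1.4, HTSeq and the build UMD3.1 were used. The sources used here give neither their roles nor the annotation release nor the handling of reads with several matches, so genes with near-identical copies are uncertain. All 27 columns were matched by name in the labels, with 0 left over, and 0 rows name no gene. Of the Ensembl identifiers, 0 occur in the reference gene table.

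Counts were analysed with edgeR 4.0.16 in R 4.3.3: filterByExpr (minimum count 10, minimum total 15), TMM, and a robust quasi-likelihood fit of all 27 libraries, with Benjamini-Hochberg adjustment over 11429 genes at 0.05. CPM used the totals of the genes kept, and log2 CPM a prior count of 2. Counting intervals are exact Poisson at 95%. Relations within groups used 100000 two-sided permutations within groups (SciPy 1.17.1), adjusted over 9 relations. The gene test was checked on simulated data. Depth ran from 972578 to 7125552 counts. Replicate numbers were not taken as pairs: 5 of 27 same-numbered pairs of libraries had deviations correlated over 0.1. Their median correlation was -0.0437, against -0.0128 for pairs of other numbers. Of the 27 libraries, 0 were most alike to the library of their own number in both other groups.

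The members and the contrasts tested were chosen with earlier results of these data known. Named genes were the members and the genes most like and most opposed to each within groups. The 2 genes nearest outside the rule in each contrast were also taken, ties going to the larger absolute log2 fold change. Of these 6 genes the values of 4 are given without identifiers. Marker genes of cell types had been listed but could not be used without symbols. Alternatives were RLE and upper quartile factors, library totals alone, no filter, 1 CPM in 9 libraries, DESeq2 1.42.0, voom from limma 3.58.1, fits of only the compared groups, the replicate number as a block, the log2 library total and leaving out each library.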

Additional observations from a re-analysis of the deposited data

Results flagged for a closer look

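In 9 sets of 9 values (3 genes in 3 feeding groups), 1 had a calf standing far off the other 8, judged by its gap to the nearest. Chance gives such a calf in about 1 in 20 single sets, and 9 sets were looked at. Replicate 3 at 0 h stood at 106 normalised CPM of ENSBTAG00000002907, with the next calf at 83.1. Without this calf the log2 fold change of 12 h over 0 h went from -0.32 to -0.26 and that of 6 h over 0 h from 0.03 to 0.09 (edgeR adjusted p = 1 in both). The contrast that chose the gene does not hold this calf.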

How the results depend on the processing

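There were 10 alternatives other than leaving out a library, and each of the 27 libraries was left out in turn. In all of these none of the 6 tests passed (adjusted p from 0.53 to 1). No fold change of the 3 genes changed direction. In the contrasts that chose the genes the direction was nearly fixed by the choice, so nothing is read from it there. For ENSBTAG00000002907 in 6 h over 0 h the log2 fold change fell to 0.0012 without replicate 8 at 0 h. Its direction in that contrast is not read either. With the replicate number as a block, the log2 fold changes in 12 h over 0 h were 0.56 for ENSBTAG00000001027, 0.49 for ENSBTAG00000003566 and -0.32 for ENSBTAG00000002907, and edgeR called 0 genes in each contrast, as without it.

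Genes called in 12 h against 0 h numbered 1 without a filter on low counts and 3 in DESeq2, in place of 0, and 0 to 1 with a library left out. The number was 1 without replicate 9 at 0 h and without replicates 5 and 8 at 6 h. In the other contrasts 0 genes were called throughout. Genes without overlap in 12 h against 0 h numbered 0 on library totals alone, in place of 2, and 2 to 4 with a library left out. In 6 h against 0 h there was 1, in place of 0, on library totals, with upper quartile factors and with 1 CPM in 9 libraries, and 0 to 1 with a library left out. In 12 h against 6 h there were 1 to 2 with a library left out. A smaller group overlaps less easily by construction. The 3 genes had 0 pairs out of order in their contrast in all 27 such fits. Leaving out a calf cannot put the others out of order unless the scaling factors shift. The outcome was thus nearly fixed by the choice, and nothing is read from it. Depth limits ENSBTAG00000003566 most, at 13 to 168 counts per library.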
